A study of Mus musculus with 10 samples.

Results

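The JAK-STAT and SOCS genes described here are the kinase genes Jak1 and Jak2, the transcription factor genes Stat3, Stat4, Stat5a, Stat5b and Stat6, and the inhibitor genes Socs1 and Socs3. Their chromatin was read by ATAC-seq. In this assay the transposase Tn5 cuts open DNA and tags the ends for sequencing, so that a peak marks an accessible region. A peak was given to one of these genes when that gene's body was the nearest protein-coding one within 50 kb. This gave 53 of the 36251 peaks tested: 14 for Jak1, 5 for Jak2, 4 for Stat3, 9 for Stat4, 1 for Stat5a, 8 for Stat5b, 4 for Stat6, 5 for Socs1 and 3 for Socs3. Of these, 9 lay within 1 kb of a gene end, 32 inside the gene and 12 between genes.

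The cells were innate lymphoid cells (ILCs), tissue lymphocytes without rearranged antigen receptors, sorted from lamina propria of the small intestine of C57BL/6 mice. All 4 groups carried Id2creERT2, a tamoxifen-inducible Cre driven from the Id2 locus, and the tdRFP reporter, and all were fed tamoxifen. RORgt-KO (n = 2) carried floxed alleles for RORgt, RORgt-Tbet-KO (n = 2) carried these with Tbx21f/f, RORgt-RORa-KO (n = 3) carried them with Roraf/f, and Control (n = 3) carried no floxed allele. RORgt is the defining factor of group 3 ILCs (ILC3s). T-bet, encoded by Tbx21, is that of group 1 ILCs, and RORa, encoded by Rora, is a nuclear receptor of the same family as RORgt. Id2 is expressed in all helper ILCs and in some other lymphocytes, so the deletion was not restricted to one ILC subset. Replicates were biological, each library holding cells of 1 mouse or of 2 or 3 pooled intestines. Age, sex and batch were not given in the sources used here.

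A cytokine brings its receptor chains together, the JAK kinases bound to them phosphorylate the receptor tails and the STAT proteins, and STAT dimers enter the nucleus and bind DNA. SOCS proteins are induced by STATs and in turn block JAKs or receptors. In gut ILCs, IL-23 signals through Jak2, Tyk2 and STAT3 towards IL-22 production, IL-12 through Jak2, Tyk2 and STAT4 towards interferon gamma, IL-7 and IL-2 through Jak1, Jak3 and the STAT5 proteins towards survival, and IL-4 through STAT6.

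STATs, the ROR receptors and T-box factors each bind known DNA letters, which were looked for in the promoters of the 9 genes. Printed next are the Socs3 window, the only one with the STAT element, and the windows of the neighbouring genes Stat5a and Stat5b, which hold ROR elements, in a pair of them at aligned positions. Each window runs from 250 bases before to 50 bases after a RefSeq transcription start on GRCm38.p6, written along the gene's own strand, with motif matches in capitals. Socs3 (chr11:117969317-117969616, minus strand) carries the STAT element TTCNNNGAA. The pair of windows at the second Stat5a start (chr11:100860234-100860533, plus strand) and at a start inside the Stat5b body (chr11:100822521-100822820, minus strand) carry the ROR element AGGTCA on the opposite strand. The first Stat5a window (chr11:100859406-100859705, plus strand) carries AGGTCA and, on the opposite strand, the T-box core TCACACC.
Socs3: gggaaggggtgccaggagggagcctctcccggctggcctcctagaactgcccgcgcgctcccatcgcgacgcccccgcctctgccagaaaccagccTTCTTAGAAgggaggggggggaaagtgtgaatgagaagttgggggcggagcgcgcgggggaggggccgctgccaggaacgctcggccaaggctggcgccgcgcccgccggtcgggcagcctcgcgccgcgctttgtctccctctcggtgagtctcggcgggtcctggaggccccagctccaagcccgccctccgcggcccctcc
Stat5a, second start: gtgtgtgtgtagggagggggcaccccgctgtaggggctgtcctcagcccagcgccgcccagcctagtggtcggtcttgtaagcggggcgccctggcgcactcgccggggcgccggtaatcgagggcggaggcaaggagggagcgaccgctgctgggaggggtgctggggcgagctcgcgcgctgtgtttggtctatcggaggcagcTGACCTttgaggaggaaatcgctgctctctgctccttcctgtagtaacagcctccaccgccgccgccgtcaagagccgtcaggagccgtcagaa
Stat5b, inner start: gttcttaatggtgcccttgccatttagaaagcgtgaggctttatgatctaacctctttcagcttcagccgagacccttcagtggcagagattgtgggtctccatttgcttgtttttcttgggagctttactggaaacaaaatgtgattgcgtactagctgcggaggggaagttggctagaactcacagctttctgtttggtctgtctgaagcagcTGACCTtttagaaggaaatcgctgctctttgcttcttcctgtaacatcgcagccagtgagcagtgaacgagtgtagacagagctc
Stat5a, first start: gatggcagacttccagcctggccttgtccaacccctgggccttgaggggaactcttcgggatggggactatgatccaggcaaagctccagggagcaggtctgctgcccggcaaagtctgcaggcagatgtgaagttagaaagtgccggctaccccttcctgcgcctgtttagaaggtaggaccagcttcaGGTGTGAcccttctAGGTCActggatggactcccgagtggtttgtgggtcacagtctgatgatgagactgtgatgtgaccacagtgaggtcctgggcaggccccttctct

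The 9 genes had 12 such windows, of which 1 (Socs3) held TTCNNNGAA on either strand, against 8.3% of 32851 windows over all genes. AGGTCA was present in 5 windows of 4 genes (Stat4, Stat5a, Stat5b and Stat6), against 16.3% of all windows, and TCACACC in 1 (Stat5a), against 3.98%. A match describes the letters and is not a measured binding site. The second Stat5a window and the inner Stat5b window aligned over 102 columns with 82 identical bases (80.4%), which included the AGGTCA match of both, 44 bases before the Stat5a start and 35 bases before the Stat5b start. All windows printed here overlapped a peak. The window of the outer Stat4 start (chr1:51986898-51987197) overlapped none, while that of a start inside Stat4 (chr1:52007990-52008289) overlapped the edge of the tallest Stat4 peak.

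Values are the authors' log2 scaled reads per peak, so that a difference of 1 is a doubling of scaled reads. Reads in peaks numbered 3388680 and 2630478 in RORgt-KO libraries, 4580787 and 5047436 in RORgt-Tbet-KO libraries, 2825693, 2271585 and 4733829 in RORgt-RORa-KO libraries, and 3381784, 3361390 and 2518233 in Control, and the libraries had a median of 37 to 73 reads per peak. Peaks within 1 kb of a gene end had a median of 6.91 to 7.12 over the 10 libraries, lowest in RORgt-RORa-KO replicate 2, the shallowest library, and highest in RORgt-RORa-KO replicate 3. All 10 ILC marker genes on the list used had a peak. Of the other markers, no peak was assigned to the T cell genes Cd3g and Cd8a, the B cell genes Ms4a1, Cd79a and Cd79b, the myeloid genes Lyz2, Csf1r and Cd68, the epithelial genes Krt18, Krt20 and Vil1, or the stromal genes Col1a1, Cdh5 and Kdr. The same lists had 6 T cell, 3 B cell, 3 myeloid, 4 epithelial and 3 stromal and endothelial genes with a peak. Their levels are given below. Which exons were floxed was not given in the sources used here, so no peak at a floxed gene was taken as a check of the deletion. In bulk libraries such as these, fewer cells with an open site and less opening per cell cannot be told apart.

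Accessibility at a Stat3 peak inside the gene and at a Socs3 peak at the gene's 3′ end was higher than Control in all 3 knockout groups. Peaks of Jak1, Jak2 and Stat4 changed upstream of or inside those genes, Socs1, Stat5a and the Stat3 and Socs3 promoters rose in RORgt-Tbet-KO, and Stat6 passed nowhere. By the moderated F test over the 4 groups, 16 of the 53 peaks differed (30.2%, against 30.7% of all peaks). In at least 1 of the 6 comparisons 21 passed, and the matching share of all peaks was not computed. Over the 53 peaks, limma with Benjamini-Hochberg adjustment over all peaks called 3 higher and 2 lower in RORgt-KO (9.43%, against 12.3% of all peaks), 9 higher and 0 lower in RORgt-Tbet-KO (17%, against 22.6%), and 12 higher and 2 lower in RORgt-RORa-KO (26.4%, against 31.2%). The shares were near or under those of all peaks. By direction, the background was 5.19% higher and 7.12% lower in RORgt-KO, 11.3% in each direction in RORgt-Tbet-KO, and 15.1% higher and 16.1% lower in RORgt-RORa-KO. At an unadjusted p under 0.05, 9 peaks were higher and 5 lower in RORgt-KO (26.4%, against 24.5% of all peaks), 18 higher and 1 lower in RORgt-Tbet-KO (35.8%, against 34.7%), and 18 higher and 2 lower in RORgt-RORa-KO (37.7%, against 40.6%). Limma voom called 3 higher and 2 lower in RORgt-KO (9.43%, against 12.5%), 11 higher and 0 lower in RORgt-Tbet-KO (20.8%, against 27.7%), and 12 higher and 2 lower in RORgt-RORa-KO (26.4%, against 32.8%). The median log2 difference from Control over the 53 peaks was 0.19 in RORgt-KO, 0.28 in RORgt-Tbet-KO and 0.31 in RORgt-RORa-KO, against 0.02, 0.01 and 0.02 over all peaks. These 3 comparisons share the Control libraries. Leaving out 1 library moved the number called over all peaks as well as among the 53, and both ranges are given at the end. The counts that follow are for the 53 peaks only. The count in RORgt-KO was 2 without its replicate 1 and 3 without its replicate 2. In RORgt-Tbet-KO it was 2 without its replicate 1, 3 without its replicate 2 and 5 without Control replicate 2.

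**Figure D1:**
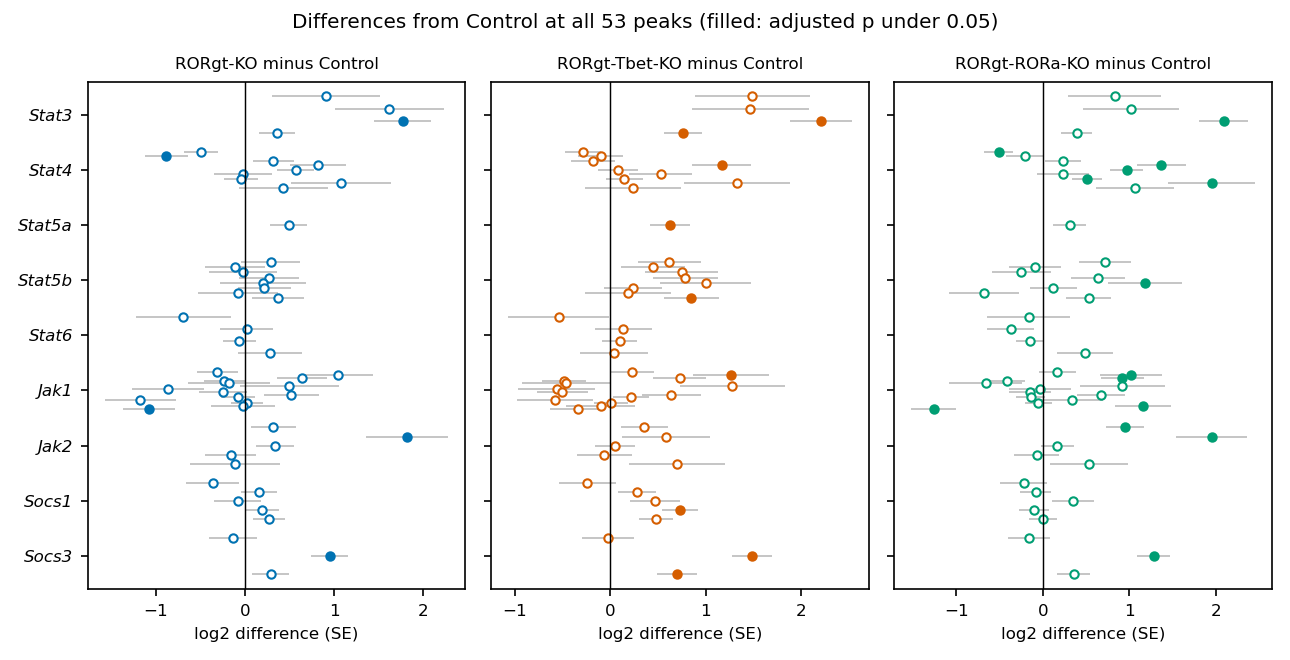
Log2 difference from Control (x axis, log2 scaled reads) at each of the 53 peaks, by gene (rows) and knockout group (panels); bars are moderated standard errors, and filled points have an adjusted p under 0.05 by limma. The Stat3 point at 1.77, 2.21 and 2.09 and the Socs3 point at 0.95, 1.49 and 1.28 are filled in all 3 panels, and no Stat6 point is filled.

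Jak1, the kinase shared by receptors of the common gamma chain, gp130 and interferon families, had the most peaks. Its promoter peak (chromosome 4, 101264335 to 101265522) averaged 8.31 ± 0.15 in RORgt-KO, 8.62 ± 0.16 in RORgt-Tbet-KO, 8.26 ± 0.28 in RORgt-RORa-KO and 8.4 ± 0.13 in Control (SD, n = 2, 2, 3 and 3). None of its 3 differences from Control, from -0.14 to 0.22, passed the test. The called peaks lay inside the gene and 18701 to 36413 bp upstream of it, and they ran in both directions.

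The Jak1 peak with the smallest F test p lay 36413 bp upstream (101301695 to 101302424). It had 5.64 and 5.51 in RORgt-KO libraries, 6.50 and 6.12 in RORgt-Tbet-KO libraries, 5.48, 4.91 and 5.77 in RORgt-RORa-KO libraries, and 6.33, 6.71 and 6.91 in Control. RORgt-KO and RORgt-RORa-KO libraries were all below the Control libraries, and RORgt-Tbet-KO overlapped Control. The differences were -1.07 in RORgt-KO (SE 0.29, adjusted p = 0.0141), -1.26 in RORgt-RORa-KO (SE 0.26, adjusted p = 0.000465) and -0.34 in RORgt-Tbet-KO (SE 0.29, adjusted p = 0.438). In RORgt-KO the call was lost without its replicate 1 (-1.14, adjusted p = 0.085), its replicate 2 (-1.01, adjusted p = 0.129) or Control replicate 3 (-0.94, adjusted p = 0.0503).

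The neighbouring peak, 33155 bp upstream of Jak1 (101298437 to 101298808), went the other way. It had 5.04 and 4.46 in RORgt-KO libraries, 4.56 and 4.79 in RORgt-Tbet-KO libraries, 6.10, 5.73 and 5.97 in RORgt-RORa-KO libraries, and 4.62, 5.02 and 4.68 in Control. The 3 RORgt-RORa-KO libraries stood above all others, by 1.16 against Control (SE 0.32, adjusted p = 0.00615) and by 1.26 against RORgt-Tbet-KO (SE 0.36, adjusted p = 0.0264). The difference of 1.18 against RORgt-KO did not pass (SE 0.36, adjusted p = 0.105). The call against RORgt-Tbet-KO was lost without either RORgt-Tbet-KO library (1.14 without replicate 1, adjusted p = 0.282, and 1.38 without replicate 2, adjusted p = 0.149) and without RORgt-RORa-KO replicate 1 (1.18, adjusted p = 0.102). Between these and the gene, a tall peak (101292027 to 101293518) averaged 8.08 ± 0.11 in RORgt-KO, 8.08 ± 0.02 in RORgt-Tbet-KO, 8.01 ± 0.22 in RORgt-RORa-KO and 8.06 ± 0.09 in Control, with 95% intervals of the differences from Control within -0.39 and 0.39.

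Inside Jak1, the peak at 101182565 to 101182944 rose by 0.92 in RORgt-RORa-KO (SE 0.25, adjusted p = 0.00514), and the small peak at 101172760 to 101172960 rose by 1.27 in RORgt-Tbet-KO (SE 0.40, adjusted p = 0.0224) and by 1.02 in RORgt-RORa-KO (SE 0.36, adjusted p = 0.0295). The smaller one held 9 to 48 reads per library. Without Control replicate 1 its differences were 1.00 (adjusted p = 0.0797) and 0.76 (adjusted p = 0.132). Its RORgt-Tbet-KO call was also lost without either library of that group (1.26, adjusted p = 0.158, and 1.27, adjusted p = 0.154), and its RORgt-RORa-KO call without replicate 1 of that group (0.85, adjusted p = 0.13). A further peak 18701 bp upstream (101283983 to 101284292) was 1.51 higher in RORgt-RORa-KO than in RORgt-KO (SE 0.40, adjusted p = 0.0481), on 10 to 50 reads per library. That call was lost in 13 of 20 alternatives: 1.04 (adjusted p = 0.42) and 1.99 (adjusted p = 0.099) without RORgt-KO replicate 1 or 2, 1.61, 1.36 and 1.57 without RORgt-RORa-KO replicate 1, 2 or 3, and 1.51 without Control replicate 2 or either RORgt-Tbet-KO library. The other 9 Jak1 peaks passed in no comparison.

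Jak2, the kinase of IL-12, IL-23 and growth hormone receptors, changed upstream and not at its promoter. Its promoter peak (chromosome 19, 29250997 to 29252231) averaged 8.04 ± 0.52 in RORgt-KO, 7.76 ± 0.12 in RORgt-Tbet-KO, 7.88 ± 0.30 in RORgt-RORa-KO and 7.71 ± 0.11 in Control, and differences from Control of 0.05 to 0.34 did not pass. A small peak 10004 bp upstream (29241586 to 29241799) had 5.24 and 5.29 in RORgt-KO libraries, 4.23 and 3.83 in RORgt-Tbet-KO libraries, 5.13, 6.07 and 4.97 in RORgt-RORa-KO libraries, and 3.96, 3.37 and 3.00 in Control. RORgt-KO and RORgt-RORa-KO libraries all lay above the other groups, and RORgt-Tbet-KO overlapped Control.

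At that upstream peak the difference was 1.82 in RORgt-KO (SE 0.46, adjusted p = 0.00816), 1.95 in RORgt-RORa-KO (SE 0.41, adjusted p = 0.000579) and 0.59 in RORgt-Tbet-KO (SE 0.46, adjusted p = 0.385). The libraries held 5 to 38 reads there. The difference between RORgt-Tbet-KO and RORgt-KO, -1.23 with a 95% interval of -2.27 to -0.20, did not pass (adjusted p = 0.286), but passed with library weights (adjusted p = 0.0424) and with only these 2 groups in the fit (adjusted p = 0.0354). That between RORgt-RORa-KO and RORgt-Tbet-KO, 1.36 with an interval of 0.41 to 2.3, did not pass either (adjusted p = 0.0732), and passed in 7 of 19 alternatives, voom among them (1.26, adjusted p = 0.0364). In RORgt-KO the call was lost when either of its libraries was left out (1.85, adjusted p = 0.084, without replicate 1, and 1.80, adjusted p = 0.0902, without replicate 2). The peak 14398 bp upstream (29236706 to 29237405) rose by 0.95 in RORgt-RORa-KO (SE 0.22, adjusted p = 0.00163), with 7.13, 6.73 and 7.48 against 6.18, 6.13 and 6.17 in Control. The 2 Jak2 peaks inside the gene passed in no comparison.

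**Figure D2:**
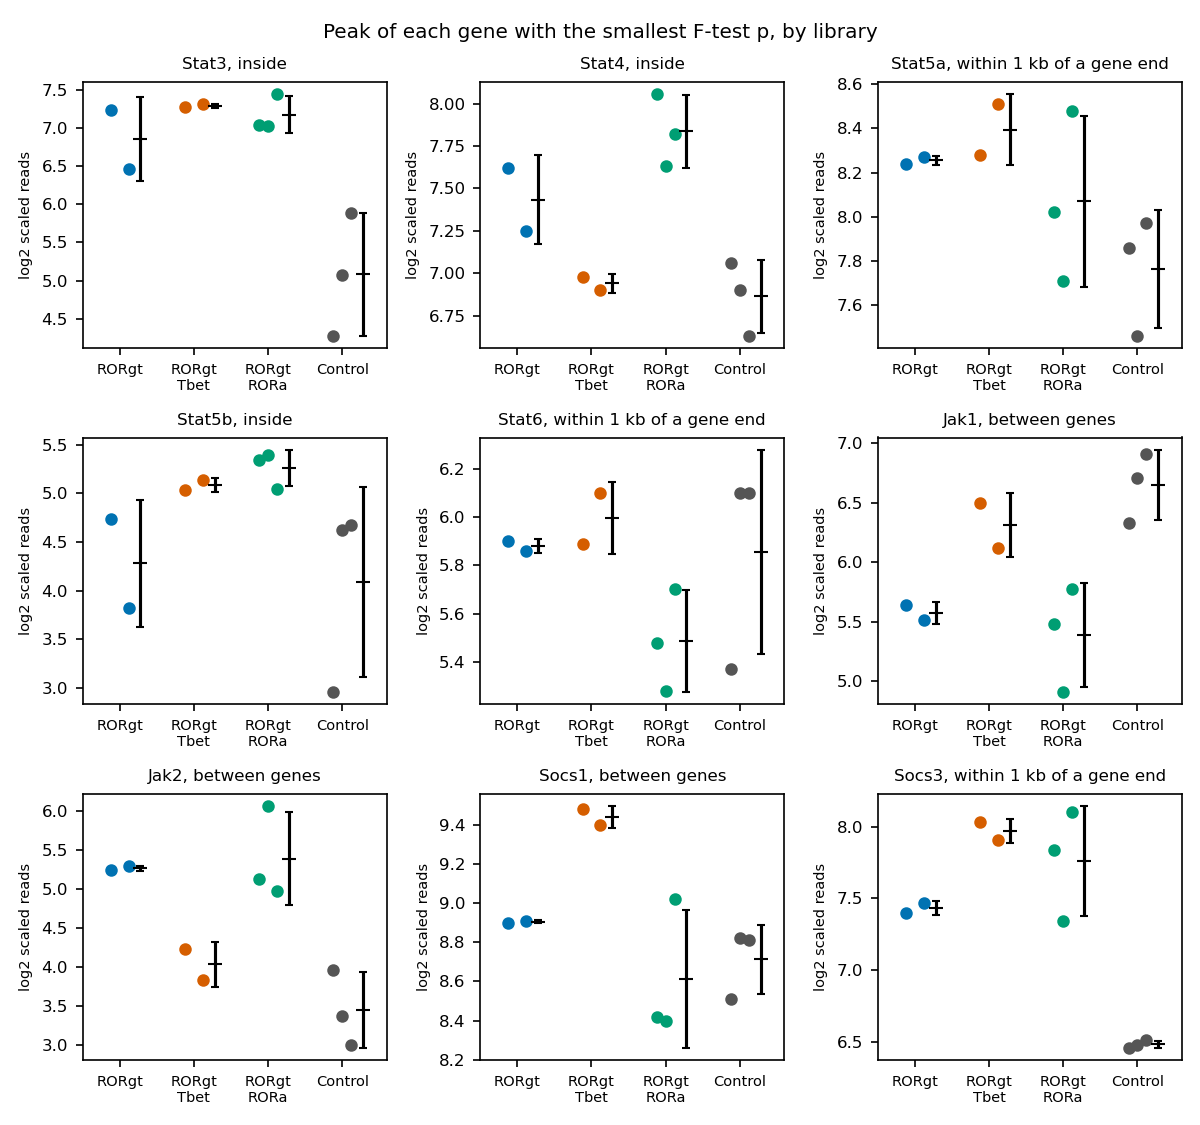
Log2 scaled reads per library (y axis) in the 4 groups (x axis) at the peak of each gene with the smallest F test p; points are libraries, and the bar is the mean ± SD, and axis labels name the deleted factors. The Stat3 and Socs3 panels have every knockout library above every Control library, while the Jak1 panel has RORgt-KO and RORgt-RORa-KO below Control.

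Stat3, the STAT activated by IL-6, IL-10, IL-21, IL-22 and IL-23, showed the largest differences from Control of the 9 genes in the 2 double knockouts, while in RORgt-KO the upstream Jak2 peak differed by 1.82 and Stat3 by 1.77. The peak inside the gene, 5129 bp from its 5′ end (chromosome 11, 100933821 to 100934465), had 7.24 and 6.46 in RORgt-KO libraries, 7.27 and 7.31 in RORgt-Tbet-KO libraries, 7.04, 7.03 and 7.45 in RORgt-RORa-KO libraries, and 4.28, 5.07 and 5.89 in Control. All 7 knockout libraries lay above all 3 Control libraries, which were themselves spread by more than any knockout group. The difference from Control was 1.77 in RORgt-KO (3.41-fold, SE 0.32, adjusted p = 0.000337), 2.21 in RORgt-Tbet-KO (4.62-fold, SE 0.32, adjusted p = 1.19e-05) and 2.09 in RORgt-RORa-KO (4.27-fold, SE 0.28, adjusted p = 1.74e-06). All 3 calls held in each of 20 alternatives, and over libraries left out the difference ranged from 1.37 to 2.17, 1.81 to 2.61 and 1.69 to 2.50.

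The knockout groups were not told apart at this Stat3 peak. RORgt-Tbet-KO exceeded RORgt-KO by 0.44 (95% interval -0.27 to 1.15), RORgt-RORa-KO exceeded RORgt-KO by 0.32 (-0.33 to 0.97), and RORgt-RORa-KO differed from RORgt-Tbet-KO by -0.12 (-0.77 to 0.53). The Stat3 promoter peak (100938854 to 100940214) had 8.56 and 8.70 in RORgt-KO libraries, 9.03 and 9.01 in RORgt-Tbet-KO libraries, 8.75, 8.23 and 8.97 in RORgt-RORa-KO libraries, and 8.50, 7.90 and 8.38 in Control. It rose by 0.76 in RORgt-Tbet-KO (SE 0.20, adjusted p = 0.00744), while the differences of 0.36 in RORgt-KO (adjusted p = 0.28) and 0.39 in RORgt-RORa-KO (adjusted p = 0.108) did not pass. The promoter call was lost without Control replicate 2, the lowest library (0.58, adjusted p = 0.0628), and without either RORgt-Tbet-KO library (0.75, adjusted p = 0.0773, and 0.77, adjusted p = 0.0659). The other 2 Stat3 peaks, further inside the gene, averaged 2.96 to 4.79 in the 4 groups and passed in no comparison by limma, with differences from Control of 0.83 to 1.62. Voom called the one at 100912791 in RORgt-Tbet-KO (adjusted p = 0.0273, against 0.0749 by limma).

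Stat5a and Stat5b, near-identical STATs downstream of IL-2, IL-7 and IL-15, lie next to Stat3 on chromosome 11 in the order Stat5b, Stat5a, Stat3, with 346 bp between the Stat5b and Stat5a bodies and 1636 bp between Stat5a and Stat3. The peak over the starts of both Stat5a windows (100859483 to 100860868) begins 132 bp inside Stat5a and 479 bp from Stat5b, and was counted for Stat5a. It had 8.24 and 8.27 in RORgt-KO libraries, 8.28 and 8.51 in RORgt-Tbet-KO libraries, 8.02, 7.71 and 8.48 in RORgt-RORa-KO libraries, and 7.86, 7.46 and 7.97 in Control. RORgt-KO and RORgt-Tbet-KO lay above Control, and RORgt-RORa-KO overlapped it. It rose by 0.63 in RORgt-Tbet-KO (SE 0.21, adjusted p = 0.0274), a call lost without Control replicate 2 (0.48, adjusted p = 0.139) or either RORgt-Tbet-KO library (0.75, adjusted p = 0.0844, and 0.52, adjusted p = 0.26). The differences of 0.49 in RORgt-KO (adjusted p = 0.131) and 0.31 in RORgt-RORa-KO (adjusted p = 0.216) did not pass, although that of RORgt-RORa-KO passed without RORgt-RORa-KO replicate 2 (0.49, adjusted p = 0.0399).

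Stat5b had 8 peaks, all inside the gene, of which 2 passed. The one with the smallest F test p (100824039 to 100824229) had 4.74 and 3.82 in RORgt-KO libraries, 5.04 and 5.14 in RORgt-Tbet-KO libraries, 5.34, 5.40 and 5.05 in RORgt-RORa-KO libraries, and 2.96, 4.62 and 4.68 in Control. It rose by 1.18 in RORgt-RORa-KO (SE 0.43, adjusted p = 0.0345), but without Control replicate 1, the lowest library, the difference was 0.62 (adjusted p = 0.264). The call was also lost without any RORgt-RORa-KO library (1.14, 1.11 and 1.29, adjusted p = 0.0937, 0.0759 and 0.0519). The peak 5526 bp from the 5′ end (100853016 to 100853478) rose by 0.85 in RORgt-Tbet-KO (SE 0.29, adjusted p = 0.0327). That call was lost without Control replicate 1 (0.85, adjusted p = 0.0595), Control replicate 2 (0.62, adjusted p = 0.145) or either RORgt-Tbet-KO library (0.72, adjusted p = 0.273, and 0.98, adjusted p = 0.115). The peak over the inner Stat5b start shown above (100822427 to 100822708) averaged 5.47 ± 0.25 in RORgt-KO, 5.99 ± 0.21 in RORgt-Tbet-KO, 5.84 ± 0.54 in RORgt-RORa-KO and 5.20 ± 0.45 in Control, and its difference of 0.79 in RORgt-Tbet-KO did not pass (adjusted p = 0.0951).

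**Figure D3:**
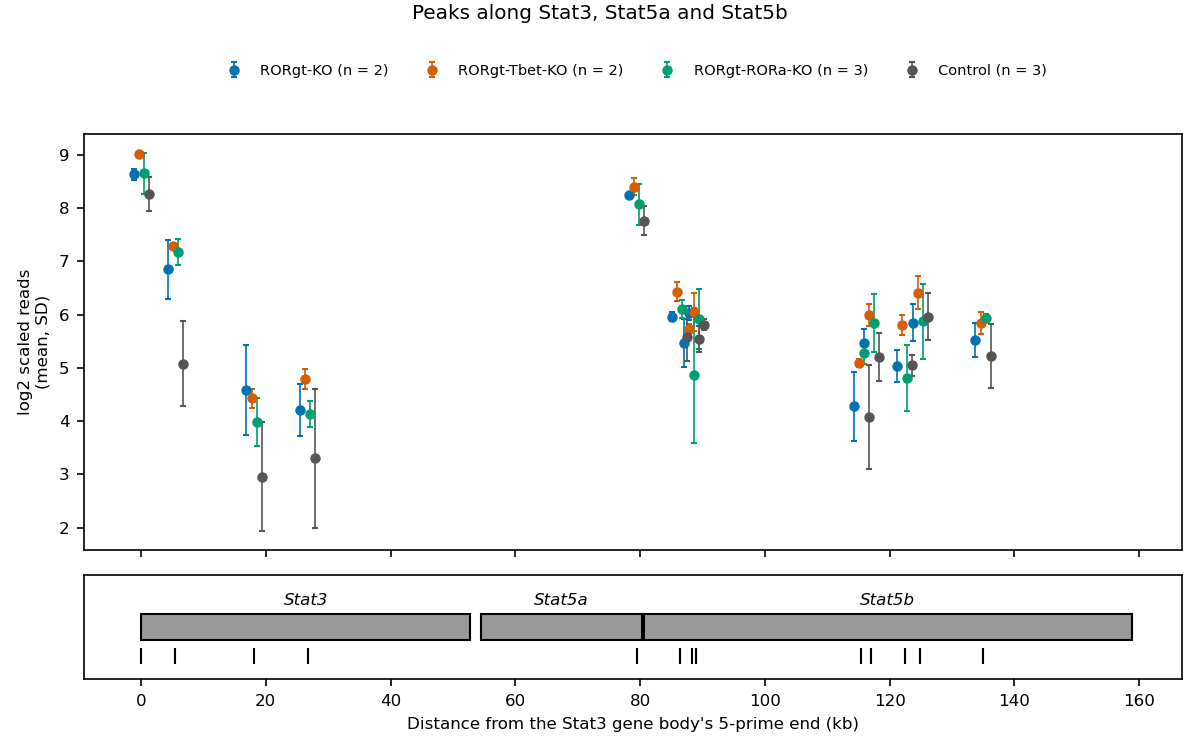
Group means ± SD of log2 scaled reads (y axis) at the 13 peaks of Stat5b, Stat5a and Stat3 against distance from the Stat3 5′ end in kb (x axis), with gene bodies as bars below. At the Stat3 peak 5129 bp inside the gene the knockout means of 6.85, 7.29 and 7.17 stand apart from the Control mean of 5.08, and at the promoter peaks the 4 groups lie closer together.

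Stat4, the STAT of IL-12, showed changes in both directions along its body. Its tallest peak (chromosome 1, 52008267 to 52009257), at the inner start, had 8.24 and 7.87 in RORgt-KO libraries, 8.29 and 8.23 in RORgt-Tbet-KO libraries, 7.72, 8.08 and 8.30 in RORgt-RORa-KO libraries, and 8.64, 8.52 and 8.48 in Control. All knockout libraries lay below all Control libraries, and the difference passed in RORgt-RORa-KO (-0.51, SE 0.17, adjusted p = 0.0205) and not in RORgt-KO (-0.49, SE 0.19, adjusted p = 0.093) or RORgt-Tbet-KO (-0.28, SE 0.19, adjusted p = 0.30). The call was lost without RORgt-RORa-KO replicate 1 (-0.36, adjusted p = 0.155) or Control replicate 1 (-0.47, adjusted p = 0.0804). The next peak (52011319 to 52011566) fell by 0.88 in RORgt-KO (SE 0.24, adjusted p = 0.0158), a call lost without either RORgt-KO library (-0.94, adjusted p = 0.087, and -0.82, adjusted p = 0.137) or Control replicate 2 (-0.72, adjusted p = 0.0856).

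Further inside Stat4, 4 peaks rose. The one with the smallest F test p (52034834 to 52035726) had 7.62 and 7.25 in RORgt-KO libraries, 6.98 and 6.90 in RORgt-Tbet-KO libraries, 8.06, 7.63 and 7.82 in RORgt-RORa-KO libraries, and 7.06, 6.90 and 6.63 in Control. RORgt-Tbet-KO libraries lay within the Control range, RORgt-RORa-KO libraries lay above all others, and RORgt-KO was between them. The difference from Control was 0.97 in RORgt-RORa-KO (SE 0.19, adjusted p = 0.000204), 0.57 in RORgt-KO (SE 0.21, adjusted p = 0.0756) and 0.08 in RORgt-Tbet-KO (SE 0.21, adjusted p = 0.827). Against RORgt-KO, the 0.40 of RORgt-RORa-KO did not pass (adjusted p = 0.448). RORgt-RORa-KO exceeded RORgt-Tbet-KO by 0.89 (SE 0.21, adjusted p = 0.00649), a call lost without either RORgt-Tbet-KO library (0.93, adjusted p = 0.0778, and 0.86, adjusted p = 0.113).

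The Stat4 peak at 52022270 to 52022664 rose by 1.17 in RORgt-Tbet-KO (SE 0.31, adjusted p = 0.00751) and by 1.37 in RORgt-RORa-KO (SE 0.28, adjusted p = 0.00037), and was 0.82 higher in RORgt-KO without passing (SE 0.31, adjusted p = 0.0885). All 7 knockout libraries, from 5.65 to 6.47, lay above the Control libraries at 4.37, 5.54 and 5.0. The RORgt-Tbet-KO call was lost without either of its libraries (1.13, adjusted p = 0.0906, and 1.21, adjusted p = 0.0665). In RORgt-RORa-KO, 52076483 to 52076684 rose by 1.95 (SE 0.50, adjusted p = 0.0034) on 4 to 29 reads per library, and 52040469 to 52041030 rose by 0.51 (SE 0.17, adjusted p = 0.0204), the second call being lost without Control replicate 1 (0.45, adjusted p = 0.0861). The other 3 Stat4 peaks passed in no comparison.

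**Figure D4:**
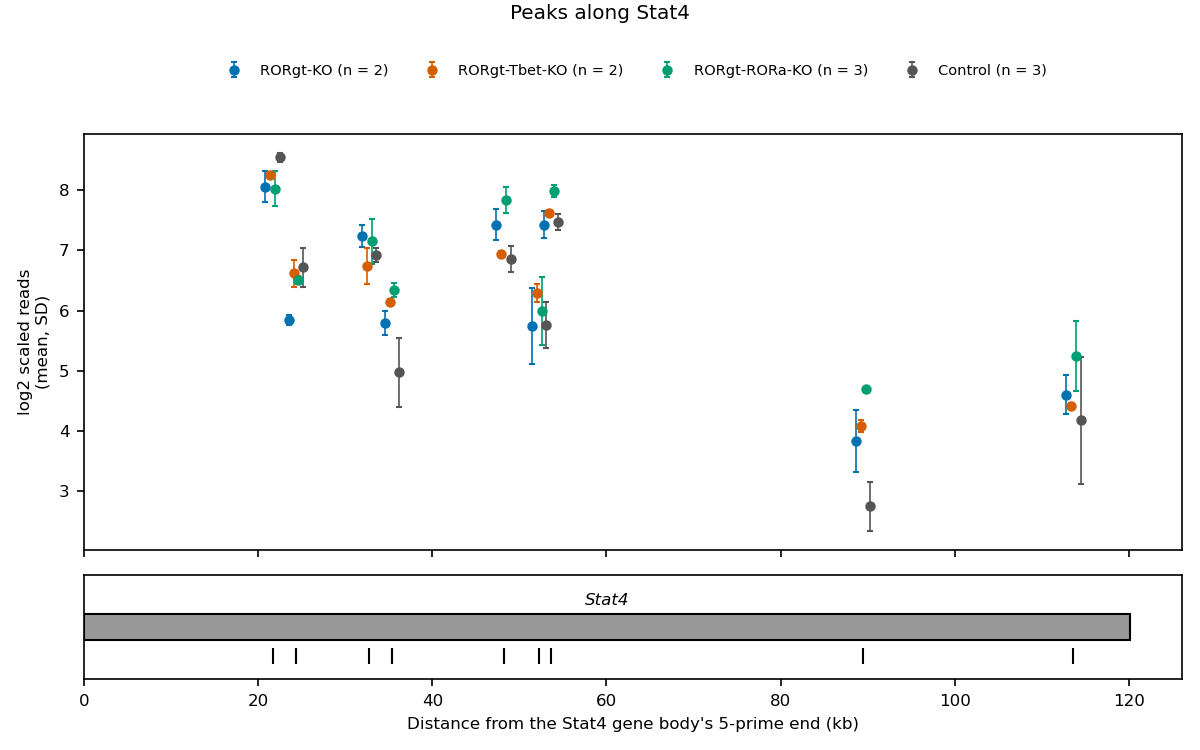
Group means ± SD of log2 scaled reads (y axis) at the 9 Stat4 peaks against distance from the Stat4 5′ end in kb (x axis), with the gene body as a bar. RORgt-RORa-KO stands highest at 7.84 in the peak 47728 bp inside the gene, where RORgt-Tbet-KO at 6.94 and Control at 6.86 lie together, and Control is highest at the tallest peak, 21161 bp inside.

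Stat6, the STAT of IL-4 and IL-13, did not pass at any of its 4 peaks in any of the 6 comparisons. By limma none reached an unadjusted p under 0.05, and voom called none. Its promoter peak (chromosome 10, 127642498 to 127644179) had 8.19 and 8.37 in RORgt-KO libraries, 8.47 and 8.41 in RORgt-Tbet-KO libraries, 8.11, 8.15 and 8.29 in RORgt-RORa-KO libraries, and 8.35, 8.14 and 8.53 in Control. The 95% intervals of its differences from Control were -0.42 to 0.30 in RORgt-KO, -0.26 to 0.46 in RORgt-Tbet-KO and -0.48 to 0.17 in RORgt-RORa-KO, so changes within these bounds were not excluded here. Its peak with the smallest F test p (127641933 to 127642196), 759 bp before the gene, had 5.90 and 5.86 in RORgt-KO libraries, 5.89 and 6.10 in RORgt-Tbet-KO libraries, 5.48, 5.28 and 5.70 in RORgt-RORa-KO libraries, and 5.37, 6.10 and 6.10 in Control. RORgt-RORa-KO libraries lay below all RORgt-KO and RORgt-Tbet-KO libraries there. The Control range of 5.37 to 6.10 overlapped all 3 knockout groups, with the lowest RORgt-RORa-KO library below it at 5.28.

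Socs1, which inhibits JAKs downstream of interferons and common gamma chain cytokines, had the highest accessibility of the 9 genes. Its peak over the gene (chromosome 16, 10784982 to 10786630) had 9.86 and 9.79 in RORgt-KO libraries, 10.05 and 10.04 in RORgt-Tbet-KO libraries, 9.50, 9.21 and 9.97 in RORgt-RORa-KO libraries, and 9.63, 9.45 and 9.6 in Control. RORgt-Tbet-KO was the highest group, by 0.48 over Control, without passing by limma (SE 0.18, adjusted p = 0.0551), while voom called it (adjusted p = 0.0175). The peak 1332 bp beyond the 3′ end (10781915 to 10782476) had 8.90 and 8.91 in RORgt-KO libraries, 9.48 and 9.4 in RORgt-Tbet-KO libraries, 8.42, 8.4 and 9.02 in RORgt-RORa-KO libraries, and 8.51, 8.82 and 8.81 in Control. RORgt-Tbet-KO libraries lay above all others.

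That Socs1 peak rose by 0.73 in RORgt-Tbet-KO (SE 0.19, adjusted p = 0.00554), a call lost without its replicate 1 (0.69, adjusted p = 0.0834). The differences of 0.19 in RORgt-KO (adjusted p = 0.597) and -0.10 in RORgt-RORa-KO (adjusted p = 0.685) did not pass. Nor did the 0.54 by which RORgt-Tbet-KO exceeded RORgt-KO (adjusted p = 0.237). RORgt-RORa-KO was 0.83 below RORgt-Tbet-KO there (log2 difference -0.83, SE 0.19, adjusted p = 0.00439), a call lost without either RORgt-Tbet-KO library (-0.79, adjusted p = 0.0973, and -0.87, adjusted p = 0.0549). The other 3 Socs1 peaks, 8788 to 14689 bp downstream, passed in no comparison.

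Socs3, which binds gp130-type receptors and JAKs and restrains STAT3, was higher in every knockout group at its 3′ end. The peak 32 bp beyond that end (chromosome 11, 117965637 to 117966047) had 7.40 and 7.47 in RORgt-KO libraries, 8.03 and 7.91 in RORgt-Tbet-KO libraries, 7.84, 7.34 and 8.10 in RORgt-RORa-KO libraries, and 6.46, 6.48 and 6.51 in Control. The Control libraries, from 6.46 to 6.51, lay below all 7 knockout libraries. The difference was 0.95 in RORgt-KO (1.94-fold, SE 0.21, adjusted p = 0.00278), 1.49 in RORgt-Tbet-KO (2.80-fold, SE 0.21, adjusted p = 1.03e-05) and 1.28 in RORgt-RORa-KO (2.42-fold, SE 0.19, adjusted p = 6.38e-06). All 3 calls held in each of 20 alternatives. RORgt-Tbet-KO exceeded RORgt-KO by 0.53 (95% interval 0.06 to 1.01), which did not pass after adjustment (adjusted p = 0.325).

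The Socs3 promoter peak (117968888 to 117970149), which covers the window with TTCTTAGAA printed above, had 8.04 and 7.89 in RORgt-KO libraries, 8.30 and 8.43 in RORgt-Tbet-KO libraries, 8.15, 7.65 and 8.28 in RORgt-RORa-KO libraries, and 7.92, 7.27 and 7.83 in Control. It rose by 0.70 in RORgt-Tbet-KO (SE 0.21, adjusted p = 0.0174), and the differences of 0.29 in RORgt-KO (adjusted p = 0.435) and 0.36 in RORgt-RORa-KO (adjusted p = 0.157) did not pass. The call was lost without Control replicate 2 (0.49, adjusted p = 0.117) or either RORgt-Tbet-KO library (0.76, adjusted p = 0.0866, and 0.63, adjusted p = 0.164). The remaining Socs3 peak, 2325 bp beyond the 3′ end (117963422 to 117963754), averaged 6.17 ± 0.28 in RORgt-KO, 6.28 ± 0.04 in RORgt-Tbet-KO, 6.14 ± 0.33 in RORgt-RORa-KO and 6.30 ± 0.28 in Control, with differences from Control of -0.16 to -0.02.

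Without a mean-variance trend in the limma fit, 12 of the 32 called differences at single peaks were lost, with the adjusted p of that fit in parentheses here. In RORgt-Tbet-KO against Control these were the Socs1 peak beyond the 3′ end (0.0664), the promoter peaks of Stat3 (0.0844), Stat5a (0.133) and Socs3 (0.107), and Stat5b at 100853016 (0.062). In RORgt-RORa-KO against Control they were Stat4 at 52008267 (0.089) and 52040469 (0.0541) and Stat5b at 100824039 (0.0744), and in RORgt-KO the Jak1 peak at 101301695 (0.0512). Between knockout groups they were Socs1 at 10781915 (0.0929) and Stat4 at 52034834 (0.0621) in RORgt-RORa-KO against RORgt-Tbet-KO, and Jak1 at 101283983 (0.146). With only the 2 groups compared in the fit, Jak1 at 101172760 (0.0857) and Stat5b at 100824039 (0.0505) were lost in RORgt-RORa-KO against Control, and with quantile normalization Jak1 at 101298437 was lost in RORgt-RORa-KO against RORgt-Tbet-KO (0.0541).

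RORgt-RORa-KO replicate 3 was the highest and replicate 2 the lowest library of that group at the promoter peaks of Jak1, Jak2, Stat3, Stat5a, Socs1 and Socs3. These libraries had 4733829 and 2271585 reads in peaks and gene-end medians of 7.12 and 6.91, and their part in the results was not tested. The promoter peaks of Stat3, Stat5a and Socs3 passed in RORgt-Tbet-KO, whose libraries had 4580787 and 5047436 reads in peaks. The part of depth in these calls was not tested either. Control replicate 2 was the lowest library at these promoters (7.90, 7.46 and 7.27), and each call was lost without it. Its gene-end median was 6.96, against 7.05 and 7.09 in Control replicates 1 and 3, and the part of this level in the calls was not tested.

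Summed over all its peaks and tested over 13147 genes with limma, Stat3 rose in every knockout group and Socs3 in the 2 double knockouts. In RORgt-KO, 1 of the 9 genes was higher and 0 lower by limma, with 3 and 0 at an unadjusted p under 0.05, while 2.05% of all genes were called higher and 3.63% lower (5.67% together). In RORgt-Tbet-KO 5 were higher and 0 lower, with the same counts unadjusted, against 10.9% and 10.1% (21%). In RORgt-RORa-KO 3 were higher and 0 lower, with 4 and 0 unadjusted, against 10.5% and 13.2% (23.7%). These shares of all genes are at the adjusted threshold. The share of all genes at an unadjusted p under 0.05 was not computed, so the unadjusted counts have no background here. Stat3 had 558.0 and 562.1 scaled reads in RORgt-KO libraries, 723.7 and 727.4 in RORgt-Tbet-KO libraries, 601.7, 463.7 and 704.8 in RORgt-RORa-KO, and 396.2, 282.1 and 434.8 in Control. All knockout libraries lay above Control, by 0.62 (adjusted p = 0.0378), 0.99 (adjusted p = 0.000346) and 0.67 (adjusted p = 0.00292) on the log2 scale. Without Control replicate 2 the RORgt-KO difference was 0.43 (adjusted p = 0.227), and without Control replicate 1 it was 0.68 (adjusted p = 0.0709). It was also lost without either RORgt-KO library (0.62, adjusted p = 0.269, and 0.61, adjusted p = 0.238), and without RORgt-RORa-KO replicate 1 or either RORgt-Tbet-KO library (0.62, adjusted p = 0.0554, 0.0539 and 0.0539).

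Socs3 summed to 515.3 and 477.3 in RORgt-KO libraries, 653.1 and 665.4 in RORgt-Tbet-KO libraries, 603.1, 419.6 and 654.6 in RORgt-RORa-KO libraries, and 409.2, 308.0 and 414.0 in Control, again without overlap with Control. It rose by 0.82 in RORgt-Tbet-KO (SE 0.17, adjusted p = 0.00169) and by 0.56 in RORgt-RORa-KO (SE 0.16, adjusted p = 0.0111), and the 0.41 of RORgt-KO did not pass (SE 0.17, adjusted p = 0.203). The RORgt-RORa-KO call was lost without Control replicate 2 (0.42, adjusted p = 0.0913), or without RORgt-RORa-KO replicate 1 (0.49, adjusted p = 0.0677) or 3 (0.43, adjusted p = 0.0604).

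Socs1 sums were 1834.8 and 1760.2 in RORgt-KO libraries, 2273.7 and 2157.0 in RORgt-Tbet-KO libraries, 1395.0, 1297.7 and 2005.0 in RORgt-RORa-KO libraries, and 1491.7, 1599.4 and 1635.3 in Control. The sum rose by 0.49 in RORgt-Tbet-KO (SE 0.15, adjusted p = 0.0209). RORgt-RORa-KO was lower than RORgt-Tbet-KO (-0.53, SE 0.15, adjusted p = 0.0433). The first call was lost without Control replicate 1 or 2 (0.45 and 0.50, adjusted p = 0.0799 and 0.0515) or without either RORgt-Tbet-KO library (0.45 and 0.53, adjusted p = 0.167 and 0.118). The second was lost without any library but Control replicate 3 and RORgt-RORa-KO replicate 3, at -0.41 without RORgt-RORa-KO replicate 2, -0.46 without its replicate 1, -0.49 and -0.57 without RORgt-Tbet-KO replicate 1 or 2, and -0.53 without either RORgt-KO library or Control replicate 1 or 2.

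In RORgt-Tbet-KO the Stat5a and Stat5b sums rose by 0.63 (SE 0.20, adjusted p = 0.0248) and 0.55 (SE 0.18, adjusted p = 0.0324), while the Jak2 sum rose in RORgt-RORa-KO, by 0.44 (SE 0.15, adjusted p = 0.0402). Without Control replicate 2 these were 0.48 (adjusted p = 0.126), 0.41 (adjusted p = 0.162) and 0.43 (adjusted p = 0.0963). Without RORgt-Tbet-KO replicate 1 or 2, the Stat5a call was lost at 0.75 (adjusted p = 0.0749) and 0.52 (adjusted p = 0.253), and the Stat5b call at 0.59 (adjusted p = 0.135) and 0.52 (adjusted p = 0.213). The Jak2 call was also lost without Control replicate 1 or 3 (0.42 and 0.46, adjusted p = 0.117 and 0.0539), RORgt-RORa-KO replicate 1 or 3 (0.47 and 0.30, adjusted p = 0.075 and 0.183), or either RORgt-Tbet-KO library (0.44, adjusted p = 0.0541 and 0.0543). Jak1, Stat4 and Stat6 sums passed in no comparison, with differences from Control of -0.11 to 0.07, -0.06 to 0.24 and -0.11 to 0.06.

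**Figure D5:**
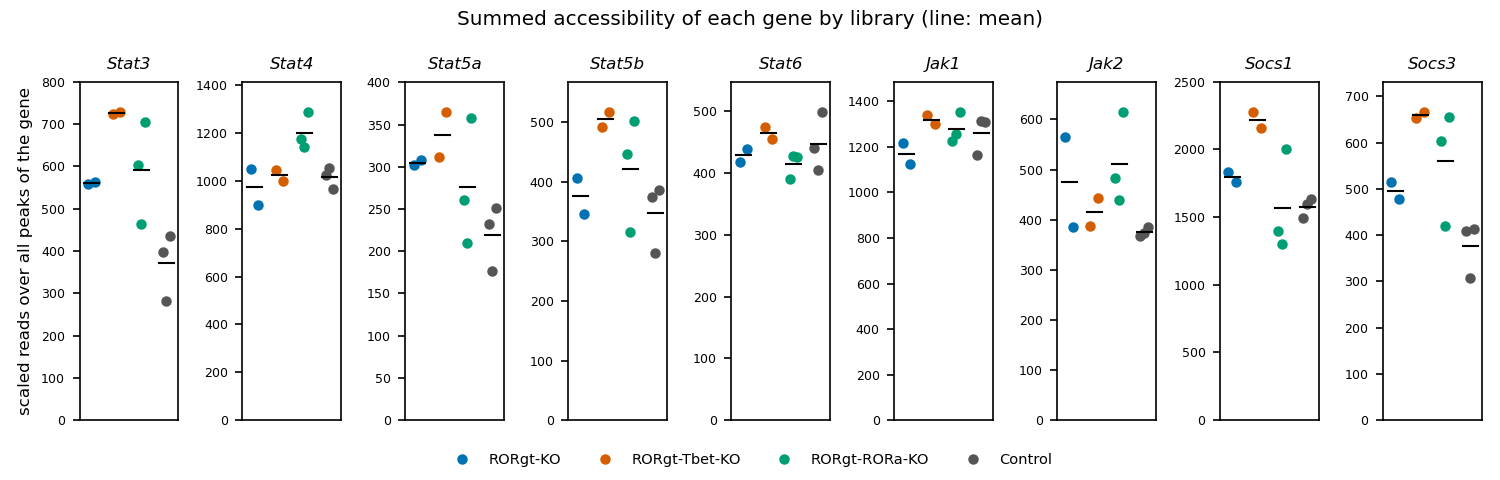
Scaled reads summed over all peaks of each gene (y axis, starting at 0) per library in the 4 groups (x axis); points are libraries and lines are group means. Stat3 and Socs3 have every knockout library above Control, and Socs1 is highest in RORgt-Tbet-KO at 2273.7 and 2157.0.

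Per kb of peak, Socs1 held 540 ± 15.8 scaled reads in RORgt-KO, 666 ± 24.8 in RORgt-Tbet-KO, 471 ± 115 in RORgt-RORa-KO and 473 ± 22.4 in Control (SD), and was the highest gene in all 4 groups. In Control it was followed by Stat4 at 235 ± 10.6, Socs3 at 188 ± 29.9, Stat6 at 177 ± 18.7, Jak1 at 175 ± 12.0, Stat5a at 159 ± 28.1, Stat3 at 153 ± 32.7, Jak2 at 143 ± 3.64 and Stat5b at 121 ± 20.1. From Socs3 to Stat5b, each neighbouring pair overlapped within 1 SD. In RORgt-Tbet-KO, Socs3 at 329 ± 4.32 and Stat3 at 299 ± 1.07 stood above Stat4 at 237 ± 8.10. In RORgt-RORa-KO, Socs3 at 279 ± 61.7, Stat4 at 278 ± 17.7 and Stat3 at 243 ± 49.8 overlapped. These are levels, set by peak height and width, and peaks of different genes also differ in base composition.

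Direct comparison of the knockout groups gave few calls. RORgt-Tbet-KO against RORgt-KO called 0 of the 53 peaks by limma (background 1.14%), with 7 at an unadjusted p under 0.05 (13.2%, against 12.6% of all peaks) and 0 by voom (background 1.76%). RORgt-RORa-KO against RORgt-KO called 1 peak, higher, at Jak1 (1.89%, background 1.47%, of which 0.331% higher). RORgt-RORa-KO against RORgt-Tbet-KO called 2 higher, at Jak1 and Stat4, and 1 lower, at Socs1 (5.66%, background 7.54%, 3.82% higher and 3.72% lower), and 0 without either RORgt-Tbet-KO library. Without RORgt-RORa-KO replicate 3 the last comparison called 7. Gene sums called 0, 0 and 1 of 9 in these 3 comparisons (background 0.578%, 0.776% and 4.23%, the last with 2.33% lower). At an unadjusted p under 0.05 there were 2, 1 and 1, for which no share of all genes was computed. The median difference over the 53 peaks was 0.21, 0.12 and -0.12, against 0.02, 0.00 and -0.02 over all peaks.

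Among 87 other genes of the pathway, in 8 lists, 75 had a peak, with 307 peaks in all. Against Control, 35 of these were higher and 15 lower in RORgt-KO (16.3%), 65 higher and 16 lower in RORgt-Tbet-KO (26.4%), and 86 higher and 38 lower in RORgt-RORa-KO (40.4%), beside the shares of 12.3%, 22.6% and 31.2% over all peaks. By gene, 15 had only higher, 8 only lower, 5 both and 47 no called peaks in RORgt-KO. The same counts were 30, 8, 4 and 33 for RORgt-Tbet-KO and 20, 6, 16 and 33 for RORgt-RORa-KO. The matching shares over all genes with a peak were not computed, and genes differ in their number of peaks. These gene counts therefore only describe the lists. Values below are log2 differences from Control by limma.

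Receptors of the IL-6, IL-12 and IL-10 families had 9 higher and 2 lower of 29 peaks in RORgt-KO. They had 7 higher and 1 lower in RORgt-Tbet-KO, and 11 higher and 5 lower in RORgt-RORa-KO, with medians of 0.18, 0.15 and 0.18. The shares called were 37.9%, 27.6% and 55.2%, against 12.3%, 22.6% and 31.2% of all peaks. Il12rb2, the signalling chain of the IL-12 receptor, rose by 2.34 in RORgt-KO (SE 0.28, adjusted p = 1.69e-06) and by 2.99 in RORgt-RORa-KO (SE 0.25, adjusted p = 3.69e-10) at a peak inside the gene (chromosome 6, 67347988 to 67348479). That peak averaged 6.94 in RORgt-KO, 4.33 in RORgt-Tbet-KO, 7.59 in RORgt-RORa-KO and 4.6 in Control. RORgt-Tbet-KO was 2.61 below RORgt-KO there (log2 difference -2.61, SE 0.30, adjusted p = 9.67e-06). Another peak inside Il12rb2 (67367150 to 67367538) rose by 2.71 in RORgt-Tbet-KO (SE 0.36, adjusted p = 3.36e-06), averaging 6.36 there and 3.64 in Control. Il23r, the IL-23 receptor chain that activates STAT3, rose by 1.70 in RORgt-KO and 2.80 in RORgt-RORa-KO at a peak 7288 bp from the gene, and by 1.64 in RORgt-Tbet-KO at a peak inside it. At an Il23r peak at a gene end, which averaged 7.52 in RORgt-KO, 7.76 in RORgt-Tbet-KO and 6.08 in RORgt-RORa-KO, RORgt-RORa-KO was lower than RORgt-KO (-1.44, adjusted p = 0.000341) and than RORgt-Tbet-KO (-1.68, adjusted p = 8.94e-06). Il6st, which encodes gp130, rose by 1.68 in RORgt-KO (adjusted p = 0.00463) and 1.88 in RORgt-Tbet-KO (adjusted p = 0.000987) at a peak 38307 bp away.

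Receptors with the common gamma chain and their partners had 6 higher and 1 lower of 32 peaks in RORgt-KO, 12 higher and 0 lower in RORgt-Tbet-KO, and 10 higher and 2 lower in RORgt-RORa-KO, with medians of 0.11, 0.47 and 0.32. The shares called were 21.9%, 37.5% and 37.5%, against 12.3%, 22.6% and 31.2% of all peaks. Il21r rose by 1.65 in RORgt-KO (adjusted p = 2.36e-05) and 1.90 in RORgt-Tbet-KO (adjusted p = 1.65e-06) at a peak inside the gene, and by 2.71 in RORgt-RORa-KO (adjusted p = 1.69e-09) at a peak 1032 bp from it. Il4ra, the receptor chain that activates STAT6, rose by 1.19 in RORgt-KO, 1.72 in RORgt-Tbet-KO and 1.39 in RORgt-RORa-KO at a peak 9185 bp from the gene. Il7r, the IL-7 receptor chain of ILCs, fell by 0.99 in RORgt-KO (adjusted p = 0.00995) at a peak 3395 bp from it.

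Interferon and other JAK-using receptors had 4 higher and 0 lower of 33 peaks in RORgt-KO, 10 higher and 2 lower in RORgt-Tbet-KO, and 12 higher and 2 lower in RORgt-RORa-KO, with medians of 0.30, 0.46 and 0.58. The shares called were 12.1%, 36.4% and 42.4%, against 12.3%, 22.6% and 31.2% of all peaks. Ifngr2, a chain of the interferon gamma receptor, rose by 1.37 in RORgt-Tbet-KO (adjusted p = 9.79e-06) and 1.01 in RORgt-RORa-KO (adjusted p = 4.65e-05) at a peak 12723 bp from the gene, which averaged 10.04 and 9.68 in these groups and 8.66 in Control. Ifngr1 rose by 1.25 in RORgt-KO and 1.82 in RORgt-RORa-KO, and Ifnar1, a chain of the type I interferon receptor, by 0.85 in RORgt-KO, 1.36 in RORgt-Tbet-KO and 1.15 in RORgt-RORa-KO.

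Ligands of the pathway were split, with 3 higher and 4 lower of 46 peaks in RORgt-KO, 7 higher and 2 lower in RORgt-Tbet-KO, and 11 higher and 8 lower in RORgt-RORa-KO, and medians of -0.04, 0.18 and -0.03. The shares called were 15.2%, 19.6% and 41.3%, against 12.3%, 22.6% and 31.2% of all peaks. Il22, a STAT3 target and the cytokine typical of ILC3s, fell by 1.95 in RORgt-KO (adjusted p = 0.000607) and 2.36 in RORgt-RORa-KO (adjusted p = 2.68e-06) at a peak 13890 bp from the gene. Peaks nearest to Il21 fell by 1.43 and 2.08 in the same groups. Lif and Il10 rose by 1.27 and 1.04 in RORgt-Tbet-KO.

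The other kinases and STATs had 0 of 8 peaks called in RORgt-KO by limma, with 3 at an unadjusted p under 0.05 and 0 by voom, 1 higher in RORgt-Tbet-KO, and 3 higher and 1 lower in RORgt-RORa-KO. The shares called by limma were 0%, 12.5% and 50%, against 12.3%, 22.6% and 31.2% of all peaks. Over all peaks, 24.5% had an unadjusted p under 0.05 in RORgt-KO by limma. Jak3, the partner of the common gamma chain, rose by 0.98 in RORgt-Tbet-KO (adjusted p = 0.00368) and 0.77 in RORgt-RORa-KO (adjusted p = 0.00665) near a gene end. Tyk2, the kinase paired with Jak2 at the IL-12 and IL-23 receptors, rose by 1.30 in RORgt-RORa-KO (adjusted p = 0.00197). Among other SOCS genes, 1 of 16 peaks was called in RORgt-KO, 2 in RORgt-Tbet-KO and 5 in RORgt-RORa-KO. These were 6.25%, 12.5% and 31.2% of the list, against 12.3%, 22.6% and 31.2% of all peaks. A peak 16069 bp from Socs2 fell by 1.36 in RORgt-KO, by 1.39 in RORgt-Tbet-KO and by 1.42 in RORgt-RORa-KO, the opposite direction to the Socs3 3′-end peak, and Cish, a STAT5 target, rose by 0.61 in RORgt-Tbet-KO (adjusted p = 0.0428).

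The other negative regulators, phosphatases, PIAS proteins and an adaptor, had 4 higher and 2 lower of 38 peaks in RORgt-KO, 12 higher and 2 lower in RORgt-Tbet-KO, and 11 higher and 5 lower in RORgt-RORa-KO. The shares called were 15.8%, 36.8% and 42.1%, against 12.3%, 22.6% and 31.2% of all peaks. Ptpn1, a phosphatase of JAK2, rose by 0.96 in RORgt-KO (adjusted p = 0.00434) and 1.40 in RORgt-RORa-KO (adjusted p = 4.03e-06). Known STAT target genes had 9 higher and 5 lower of 105 peaks in RORgt-KO, 15 higher and 8 lower in RORgt-Tbet-KO, and 26 higher and 12 lower in RORgt-RORa-KO. Their shares of 13.3%, 21.9% and 36.2% were near those of all peaks. Bcl2, the survival gene, fell by 2.07 in RORgt-KO, by 2.10 in RORgt-Tbet-KO and by 2.08 in RORgt-RORa-KO at a peak inside the gene. Prdm1, which encodes the repressor BLIMP1, rose by 1.25, 1.27 and 1.68 in the same groups at a peak 7294 bp away, and Irf1, an interferon-induced transcription factor gene, by 2.03 in RORgt-RORa-KO.

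Marker sums differed between groups as well. For the 10 ILC marker genes, scaled reads were 9351 to 10117 in RORgt-KO and 12597 to 12979 in RORgt-Tbet-KO. They were 9698 to 12470 in RORgt-RORa-KO, against 9180 to 10239 in Control. Lists of other cell types lay outside the Control range in all knockout groups, except the epithelial list in RORgt-RORa-KO. Summed over the 6 T cell marker genes with a peak, scaled reads were 675 to 737 in RORgt-KO, 647 to 747 in RORgt-Tbet-KO and 860 to 991 in RORgt-RORa-KO, against 555 to 611 in Control. For 3 B cell genes the ranges were 680 to 696, 721 to 846 and 577 to 674, against 1059 to 1148 in Control. The 3 myeloid genes gave 258 to 274, 238 to 238 and 242 to 297, against 176 to 229. The 4 epithelial genes gave 456 to 482, 486 to 499 and 368 to 444, against 408 to 438, and the 3 stromal and endothelial genes 547 to 579, 686 to 713 and 612 to 758, against 421 to 508. The part of any of these cell types in the differences at the JAK-STAT and SOCS genes was not tested.

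Over the 10 libraries, the peaks of other genes most like those with the smallest F test p were named by Pearson's r, as a description without a p, since the libraries share groups and depth. The Stat3 peak was most like peaks of Kif13b, Ccdc142 and Prrc2c (each r = 0.983), and the Socs3 3′-end peak like those of Grb2 and Rbx1 (each r = 0.979). The Stat4 peak was nearest to Sesn3 (0.972), Gnb1l (0.963) and Sla (0.959), and the Jak1 peak to Il1r1 and Ankrd6 (both 0.961) and Rasl11a (0.939). The Jak2 peak followed Gfi1 (0.954), Galc (0.953) and Ifit3b (0.947), and the Socs1 peak Akna (0.960), Naca (0.959) and Fosb (0.950). Stat5a was nearest to Kpnb1 (0.982), Laptm5 (0.978) and Sec22c (0.970), Stat5b to Sh2b1 (0.969), Srp68 and Zswim6 (both 0.945), and Stat6 to Camk2n1 (0.944), H4c4 (0.901) and Ankrd9 (0.9).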

How the data were processed

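The authors deposited 1 table of log2 scaled ATAC-seq reads, with 36262 peaks and 10 libraries. The tools named for it are Trim Galore 0.62, Bowtie2 2.3.5.1, SAMtools and MACS2, and the build is GRCm38, per the submitters' processing notes. How the scaling factor was made was not given in the sources used here. Raised to the power of 2, every value of a library was a whole multiple of 1 step (tolerance 0.01; empty peaks held 0.9 of a step), which gave the reads quoted as depth.

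The 11 peaks on Y were left out. Each peak took the nearest protein-coding gene body within 50 kb from RefSeq GRCm38.p6 (32579 peaks, 13147 genes). Peaks, and gene sums of linear values, went into limma 3.58.1 (R 4.3.3) with a mean-variance trend. A single fit held all 4 groups, with 6 residual degrees of freedom and 22.5 from the prior, 6 contrasts and a moderated F test, with Benjamini-Hochberg adjustment over the whole table at 0.05. SE is limma's moderated standard error. The fit was tested on simulated data.

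Genes, pathway lists and tests were chosen with earlier results of these data known. Every peak of the 9 genes is accounted for: the peak with the smallest F test p and the promoter peak with values, others past the threshold by difference. In each pathway list at most the 3 genes with the smallest p per comparison could be named, and not all are. Replicate numbers were not used to pair the libraries in the main fit. Alternatives covered scaling, trend, library weights, filter, pseudocount, groups in the fit, a replicate block, gene assignment and each library left out. Leaving out a library of a pair leaves 1, which is assumed to vary like the other groups. limma voom on the recovered reads, with TMM factors, was added after seeing the data. Some genes that these rules name are not reported here.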

Additional observations from a re-analysis of the deposited data

How the results depend on the processing

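Of 32 called differences at single peaks of the 9 genes, 14 were called in every alternative, among them all 3 at the Stat3 peak inside the gene and all 3 at the Socs3 3′-end peak. Of 10 called gene sums, 3 were. Over named peaks and gene sums, 3156 alternative values stayed on their side of the threshold with the same sign where called, 113 lost and 55 gained a call, and none reversed. Groups of 2 libraries and depths of 2271585 to 5047436 reads limit the precision of every value. The cause of each shift below was not tested.

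Without a trend, gene sums called 0 in RORgt-KO, 2 in RORgt-Tbet-KO, 1 in RORgt-RORa-KO against Control and 0 in RORgt-RORa-KO against RORgt-Tbet-KO, which median centring also gave (0). Library weights raised member peaks to 9 (RORgt-KO) and 18 (RORgt-Tbet-KO) against Control, 4 in RORgt-Tbet-KO and 2 in RORgt-RORa-KO against RORgt-KO, 9 in RORgt-RORa-KO against RORgt-Tbet-KO and 25 by the F test. They raised all peaks to 12468 in RORgt-Tbet-KO against Control, 3148 in RORgt-Tbet-KO against RORgt-KO, 1212 in RORgt-RORa-KO against RORgt-KO, and 6272 in RORgt-RORa-KO against RORgt-Tbet-KO. Without a trend these were 95, 45 and 1505 for the 3 knockout comparisons, with 0 member peaks in RORgt-RORa-KO against RORgt-KO, 1 against RORgt-Tbet-KO and 10 by the F test.

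Shares over all peaks were not computed for the narrower gene assignments given next. Limited to gene bodies, member peaks called were 2 of 39 in RORgt-KO and 9 in RORgt-RORa-KO against Control. They were 0 in RORgt-RORa-KO against RORgt-KO and 1 against RORgt-Tbet-KO. Within 5 kb (43 peaks) they were 3 in RORgt-KO and 0 in RORgt-RORa-KO against RORgt-KO. That last count was also 0 with median centring, 4 steps added, voom or only the 2 groups in the fit, where RORgt-Tbet-KO against RORgt-KO gave 5 member and 3341 of all peaks, and 637 with voom.

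Of 13 same-numbered pairs of libraries, 1 correlated over 0.1 (from -0.121 to 0.143), and differently numbered pairs ranged from -0.136 to 0.136. With a group of 2, the same-numbered and other values were equal with opposite signs, as in -0.066 and 0.066. The check therefore cannot decide whether the replicate numbers pair the libraries. With the replicate block, member peaks called were 8 in RORgt-KO against Control and 6 in RORgt-RORa-KO against RORgt-Tbet-KO, gene sums 3 in RORgt-KO, and all peaks 666 in RORgt-Tbet-KO against RORgt-KO.

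Leaving out 1 library, member peaks ranged from 2 to 7 in RORgt-KO, 2 to 11 in RORgt-Tbet-KO and 11 to 19 in RORgt-RORa-KO against Control, 0 to 1 in RORgt-RORa-KO against RORgt-KO, 0 to 7 against RORgt-Tbet-KO, and 10 to 19 by the F test. Gene sums ranged from 0 to 1 in RORgt-KO, 2 to 5 in RORgt-Tbet-KO and 1 to 5 in RORgt-RORa-KO against Control, and 0 to 1 in RORgt-RORa-KO against RORgt-Tbet-KO. All peaks ranged from 1711 to 5291 in RORgt-KO and 3359 to 9551 in RORgt-Tbet-KO against Control, 91 to 712 in RORgt-Tbet-KO against RORgt-KO, 86 to 606 in RORgt-RORa-KO against RORgt-KO, and 967 to 3778 in RORgt-RORa-KO against RORgt-Tbet-KO.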
